A study of Mus musculus with 13 samples.

Results

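Cholesterol synthesis enzymes were followed across mouse mammary glands as 8 genes: Hmgcs1, Idi1, Fdps, Fdft1, Sqle, Lss, Cyp51 and Dhcr7. They were taken by symbol from the 23951 gene symbols of the deposited RNA sequencing tables, and all 8 were found in both tables. The glands came from females with a conditional Jak1 knockout and from wildtype controls. At day 2 of involution, when milk removal has ended, there were 4 knockout libraries (M43196, M43767, M44176 and M44440, each M with the number of the mouse in the title) and 3 control libraries (M44448, M43768 and M43914). At day 7 of lactation there were 3 knockout libraries (M44174, M42734 and M43767) and 3 control libraries (M42186, M43768 and M44175). The sources used here do not state the Cre driver, the deleted exons, the strain or the age of the mice. M43767 and M43768 stand at both stages, so the 13 titles carry 11 different numbers, whereas the protocol counts 7 knockout and 6 control animals, and whether a shared number is 1 animal sampled at both stages is not stated. Values are FPKM, fragments scaled to the length of the transcript and to the size of the library, so levels of different genes can be set side by side.

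Cholesterol is built from acetyl-CoA. HMG-CoA synthase (Hmgcs1) acts on the way to mevalonate, which is turned into isoprenoid units, joined to squalene and folded into sterols. In sterol-poor cells the transcription factor SREBP2 leaves the endoplasmic reticulum with its escort SCAP and switches on nearly all of these enzymes, and INSIG proteins hold it back when sterol is plentiful. The lactating gland secretes cholesterol in the membrane around milk fat globules, and it both makes cholesterol and takes it up from plasma.

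Jak1 stood at 23.0, 22.2, 26.3 and 17.3 FPKM in knockout glands at involution, against 24.3, 24.0 and 24.6 FPKM in control glands. At lactation Jak1 was at 9.51, 10.2 and 11.2 FPKM in knockout glands, against 14.2, 14.0 and 6.18 FPKM in control glands. A whole-gene value in whole tissue does not test the labels of a conditional deletion, and groups are named here as labelled. Depth, relative to the average library of a table, was estimated at 0.485 to 1.502 at involution and 0.723 to 1.28 at lactation. Control M44175 at lactation stood apart, with FPKM summing to 871630, against 312976 to 421592 in the other lactation libraries. At involution knockout M43196 had the largest sum, 1367560, against 590437 to 958496 in the other involution libraries, and the lowest depth, 0.485. Knockout M43767 at involution carried skin transcripts, whose values are given beside the sterol enzymes it was highest in. Skeletal muscle markers summed to 4.89 to 6153 FPKM in knockout and 86.8 to 1697 FPKM in control glands at involution, and to 0.979 to 1193 FPKM in knockout and 1.23 to 293.04 FPKM in control glands at lactation, highest in knockouts M44176 and M44174, and their part in the enzyme values was not tested. In whole glands, fewer cells of a type and less RNA per cell cannot be told apart.

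None of the enzymes differed between knockout and control glands beyond the spread between mice, at either stage. Hmgcs1 was listed at 0 FPKM in all 13 libraries, as were 4649 symbols in all, and was not tested. An exact 0 in these tables can stand for a missing estimate, so no level is read from it. The other 7 passed the expression filter at both stages (at least 1 FPKM in at least 3 libraries). With limma and Benjamini-Hochberg adjustment over all genes tested, 0 of 7 were called at involution, where 0.064% of 12509 genes were called. At lactation 0 of 7 were called, where 0.0105% of 9560 genes were called. At an unadjusted p under 0.05 the count was also 0 of 7 at each stage, against 6.84% and 2.38% of all genes tested at involution and lactation. In every one of the 7, the FPKM of knockout and control glands overlapped at both stages, whereas the groups did not overlap in 7.09% of genes tested at involution and 6.06% at lactation.

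The point estimates were nevertheless all on the knockout side. All 7 log2 differences (knockout minus control) were positive at involution, with a median of 0.23, where 51.8% of all genes tested were positive and the median of all was 0.0095. At lactation all 7 were positive, with a median of 0.46, where 51.2% of all genes tested were positive and the median of all was 0.0082. At involution 5 of 7 were positive, and Fdft1 and Lss negative, without rescaling of the libraries, with quantile normalization, or without knockout M43767 (median 0.16 without it). Without control M43768 at involution, Fdps, Sqle and Lss were negative, and Fdft1 was negative without control M43914 or knockout M43196. At lactation all 7 stayed positive without control M44175, with a median of 0.22, and Idi1 turned negative without control M43768 or knockout M44174. Most of the enzymes varied together between libraries, Fdft1 and Sqle least, so the signs are not 7 separate observations.

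**Figure D1:**
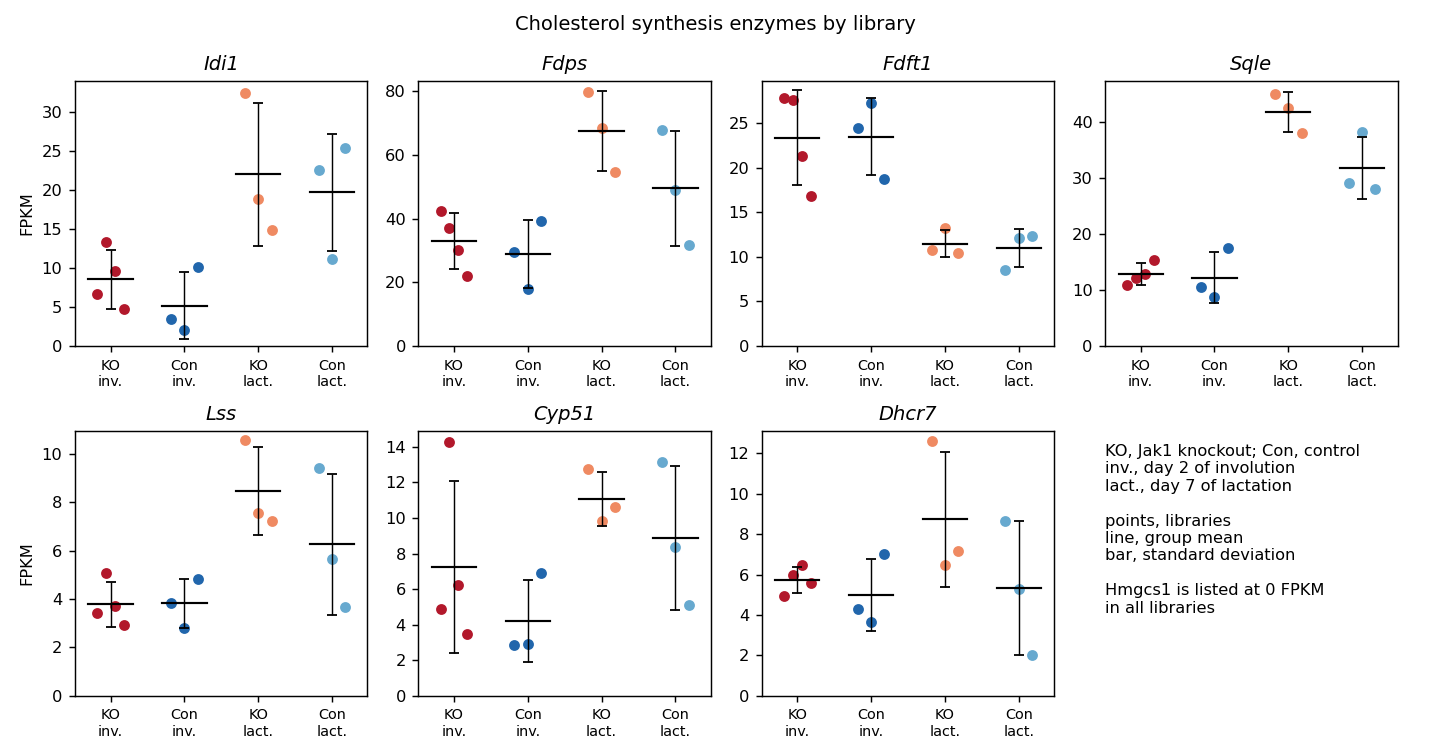
FPKM of the 7 measured enzymes in each library (vertical axis, from 0), grouped as knockout and control glands at day 2 of involution and knockout and control glands at day 7 of lactation. Points are libraries, the horizontal line is the group mean and the bar its standard deviation; within each stage the points of knockout and control glands overlap in every panel, and Sqle at lactation (28.1 to 45.1 FPKM) lies above all involution libraries.

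Among the enzymes that make isoprenoid units, Idi1 (isopentenyl diphosphate isomerase, which interconverts the C5 building blocks) spread most among the control glands at involution. Idi1 measured 6.68, 13.3, 9.57 and 4.69 FPKM in knockout glands at involution, against 3.43, 2.01 and 10.1 FPKM in control glands. Control M43914 stood at 5.04 times control M43768, and it lay above 3 of the 4 knockouts. The log2 difference was 0.79 ± 0.47 (standard error, 95% interval -0.30 to 1.88, limma adjusted p = 0.905). At lactation Idi1 measured 32.4, 18.8 and 14.9 FPKM in knockout glands, against 22.6, 11.2 and 25.4 FPKM in control glands. The ranges were interleaved, and the log2 difference was 0.22 ± 0.37 (95% interval -0.64 to 1.08, adjusted p = 0.998). Its sign turned at lactation without knockout M44174 (-0.078) or without control M43768 (-0.11). How reads were divided between Idi1 and its paralogue Idi2 is not stated in the sources used here.

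Fdps (farnesyl diphosphate synthase, which joins the C5 units to the C15 farnesyl diphosphate) was the most abundant of the enzymes by group mean in all 4 groups. It measured 42.3, 37.1, 30.2 and 22.1 FPKM in knockout glands at involution, against 29.5, 17.997 and 39.4 FPKM in control glands. At lactation Fdps measured 79.7, 68.4 and 54.7 FPKM in knockout glands, against 67.9, 49.0 and 31.7 FPKM in control glands. The highest library was a knockout at each stage and the lowest a control, and the groups overlapped. The log2 difference of Fdps was 0.23 ± 0.31 at involution (95% interval -0.48 to 0.94, adjusted p = 0.982) and 0.55 ± 0.35 at lactation (95% interval -0.26 to 1.37, adjusted p = 0.998). Without control M43768 the involution value was -0.066, and without control M44175 the lactation value was 0.22.

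The squalene enzymes, Fdft1 and Sqle, went opposite ways when the stages were set side by side, without a test, and neither was called between genotypes. Fdft1 (squalene synthase, which commits farnesyl diphosphate to sterols) measured 27.8, 27.6, 21.3 and 16.8 FPKM in knockout glands at involution, against 24.5, 27.3 and 18.7 FPKM in control glands. At lactation Fdft1 measured 10.8, 13.2 and 10.4 FPKM in knockout glands, against 8.49, 12.1 and 12.3 FPKM in control glands. The ranges of knockout and control glands overlapped widely at each stage. The log2 difference was 0.0059 ± 0.22 at involution (95% interval -0.51 to 0.52, adjusted p = 0.998) and 0.13 ± 0.21 at lactation (95% interval -0.37 to 0.62, adjusted p = 0.998). Sqle (squalene epoxidase, the first oxygen-requiring step toward sterols) measured 10.9, 12.1, 12.95 and 15.5 FPKM in knockout glands at involution, against 10.5, 8.71 and 17.4 FPKM in control glands. At lactation Sqle measured 45.1, 42.5 and 38.0 FPKM in knockout glands, against 29.1, 38.2 and 28.1 FPKM in control glands. At lactation only knockout M43767 lay below a control library, M43768. The log2 difference of Sqle was 0.14 ± 0.23 at involution (95% interval -0.40 to 0.67, adjusted p = 0.996) and 0.46 ± 0.24 at lactation (95% interval -0.091 to 1.01, adjusted p = 0.998, unadjusted p = 0.0898).

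The enzymes that form and finish the sterol nucleus had the lowest means in every group. Lss (lanosterol synthase, which folds squalene epoxide into the first sterol) measured 3.44, 5.09, 3.72 and 2.91 FPKM in knockout glands at involution, against 3.83, 2.81 and 4.83 FPKM in control glands. At lactation Lss measured 10.6, 7.57 and 7.24 FPKM in knockout glands, against 9.43, 5.66 and 3.68 FPKM in control glands. The involution groups spanned nearly the same range, and at lactation the lowest values were controls. The log2 difference of Lss was 0.012 ± 0.21 at involution (95% interval -0.47 to 0.50, adjusted p = 0.998) and 0.50 ± 0.34 at lactation (95% interval -0.30 to 1.29, adjusted p = 0.998), or 0.18 without control M44175.

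Cyp51 (lanosterol 14-alpha-demethylase) measured 4.88, 14.3, 6.22 and 3.50 FPKM in knockout glands at involution, against 2.88, 2.89 and 6.89 FPKM in control glands. Knockout M43767 held more than the other 6 libraries, and the knockout range reached 4.09 times its lowest value. At lactation Cyp51 measured 12.8, 9.82 and 10.6 FPKM in knockout glands, against 13.2, 8.39 and 5.08 FPKM in control glands. The log2 difference was 0.60 ± 0.44 at involution (95% interval -0.41 to 1.61, adjusted p = 0.940), 0.25 without knockout M43767, and 0.42 ± 0.35 at lactation (95% interval -0.39 to 1.23, adjusted p = 0.998), or 0.069 without control M44175.

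Dhcr7 (7-dehydrocholesterol reductase, the last step of one route to cholesterol) measured 4.93, 5.99, 6.46 and 5.57 FPKM in knockout glands at involution, against 4.28, 3.65 and 7.01 FPKM in control glands. The knockout values lay inside the control range. At lactation Dhcr7 measured 12.6, 6.47 and 7.14 FPKM in knockout glands, against 8.68, 5.27 and 2.04 FPKM in control glands. Control M44175 was the lowest there and knockout M44174 the highest. The log2 difference of Dhcr7 was 0.23 ± 0.20 at involution (95% interval -0.24 to 0.70, adjusted p = 0.960) and 0.77 ± 0.46 at lactation (95% interval -0.30 to 1.83, adjusted p = 0.998), or 0.28 without control M44175. Without control M42186 the lactation values were 0.86 for Fdps, 0.84 for Lss, 0.77 for Cyp51 and 1.19 for Dhcr7.

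**Figure D2:**
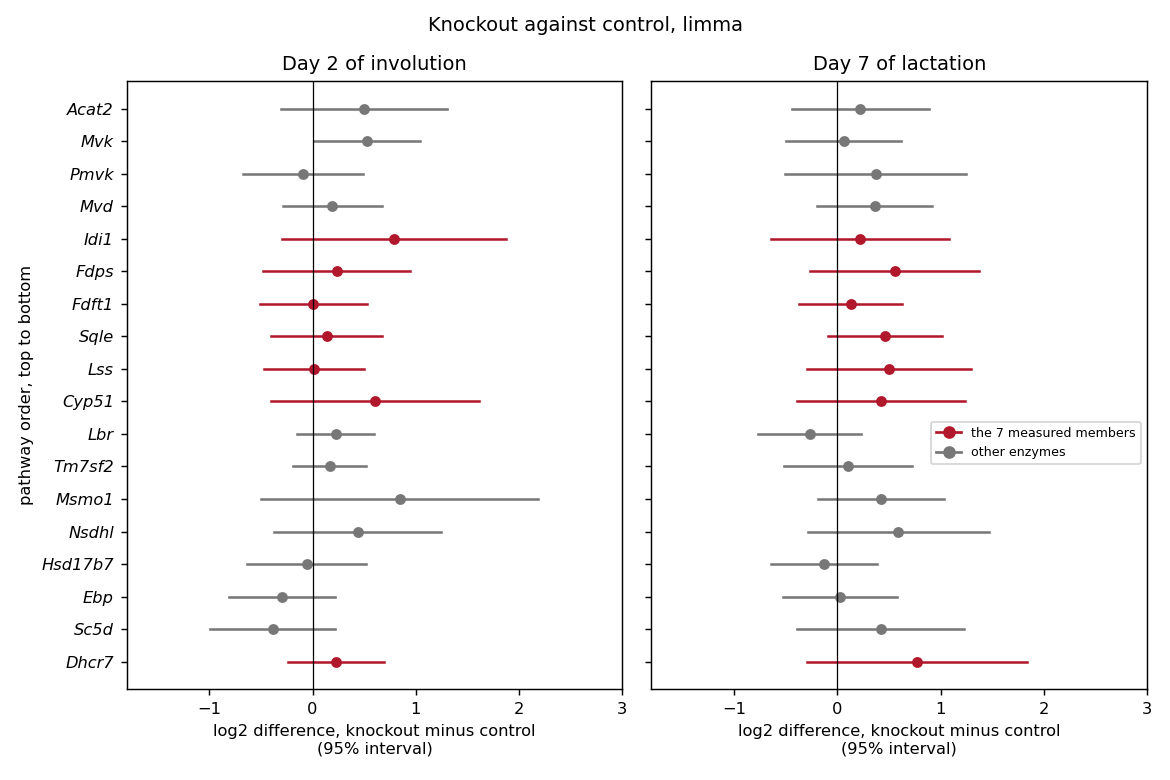
Log2 differences, knockout minus control, with 95% intervals from limma, at day 2 of involution (left) and day 7 of lactation (right), for the 7 measured enzymes (red) and 11 other enzymes of the pathway (grey), in pathway order from top to bottom. All 7 red intervals include 0 at both stages, and Msmo1 has the widest interval at involution.

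A difference of the knockout effect between stages (involution minus lactation) was called for none of the enzymes (0 of 7, where 0.0789% of 12667 genes tested were called), and 0 of 7 had an unadjusted p under 0.05 (3.35% of all genes). It was negative for 5 of 7 (51.1% of all genes were positive), with a median of -0.32 on the log2 scale, and positive for Idi1 (0.57 ± 0.66, 95% interval -0.87 to 2.01) and Cyp51 (0.18 ± 0.62, 95% interval -1.16 to 1.52). The largest negative value was that of Dhcr7 (-0.54 ± 0.53, 95% interval -1.69 to 0.61), and limma's adjusted p was 0.999 for each of the 7. This fit takes the 13 libraries as separate. With mouse number as a replicate block, Fdps (0.17), Fdft1 (0.019) and Sqle (0.0015) turned positive, which left Lss (-0.13) and Dhcr7 (-0.23) negative and a median of 0.019, so the count of negative signs depends on how the shared numbers are treated. The correlation used for the block comes only from M43767 and M43768, the numbers that stand at both stages.

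Set side by side by group mean, most of these enzymes stood lower at involution than at lactation in each genotype, and Fdft1 stood higher. The stages are in separate deposited tables that may have been normalized separately, so no test was made across them. Sqle was at 8.71 to 17.4 FPKM over the 7 involution libraries (median 12.1) and at 28.1 to 45.1 FPKM over the 6 lactation libraries (median 38.1), without overlap. Fdft1 was at 16.8 to 27.8 FPKM at involution and at 8.49 to 13.2 FPKM at lactation, also without overlap. Over all libraries 1 of 7 lay lower at involution without overlap (Sqle) and 1 higher (Fdft1), and the other enzymes overlapped. For scale, 1.42% of 12667 genes lay lower at involution without overlap and 64.8% lay higher, so the position of Fdft1 was that of most genes and the position of Sqle was not. In knockout glands alone, 5 of 7 lay lower at involution without overlap (Idi1, Fdps, Sqle, Lss and Dhcr7; 2.44% of all genes). In control glands alone, 2 of 7 did (Idi1 and Sqle; 2.34% of all genes). Fdft1 lay higher in knockout glands alone (80.1% of all genes) and in control glands alone (73.3%).

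Levels were also ranked within each library, as percentiles among the 12667 genes tested for the difference between stages, the same genes in every library, a choice made after seeing the data. By these ranks 4 of 7 enzymes stood lower at involution than at lactation without overlap over all 13 libraries (Idi1, Fdps, Sqle and Lss), where 14.0% of all genes did. Sqle held percentile 51.9 to 70.5 at involution and 88.2 to 94.4 at lactation. Idi1 held percentile 17.6 to 64.3 at involution and 80.4 to 92.0 at lactation, and Lss 23.8 to 36.7 at involution and 56.3 to 79.1 at lactation. Fdft1 overlapped, with percentile 69.7 to 80.6 at involution and 76.3 to 83.1 at lactation, so its higher FPKM at involution was not matched by a higher rank. The count of enzymes with lower ranks was 6 of 7 in knockout glands (all but Fdft1; 25.6% of all genes) and 5 of 7 in control glands (21.1% of all genes). Among only the genes with at least 1 FPKM in the same library, which numbered 11930 to 12549 at involution and 8952 to 9570 at lactation, the count was 3 of 7 over all libraries (4.03% of all genes), 6 of 7 in knockout glands (8.34%) and 5 of 7 in control glands (6.13%).

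The make-up of the pathway differed between the tables. Fdft1 supplied 17.9% to 41.7% of the summed FPKM of the 7 enzymes at involution and 5.30% to 11.4% at lactation. The ratio of Fdft1 to Fdps within a library, squalene synthase over the enzyme that makes its substrate, was 0.475 to 1.52 at involution (median 0.744) and 0.125 to 0.389 at lactation (median 0.192), without overlap. How many other genes have a ratio to Fdps that separates the stages was not counted. In FPKM, 64.8% of 12667 genes lay higher at involution without overlap, Fdft1 among them. Within a stage the ratio of Fdft1 to Fdps did not separate the genotypes, at 0.716 ± 0.0453 (SD, n = 4) in knockout glands and 0.940 ± 0.529 (SD, n = 3) in control glands at involution. At lactation it was 0.173 ± 0.0323 (SD, n = 3) in knockout glands and 0.254 ± 0.132 (SD, n = 3) in control glands. Sqle supplied 10.5% to 21.8% of the sum at involution and 18.3% to 29.4% at lactation.

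**Figure D3:**
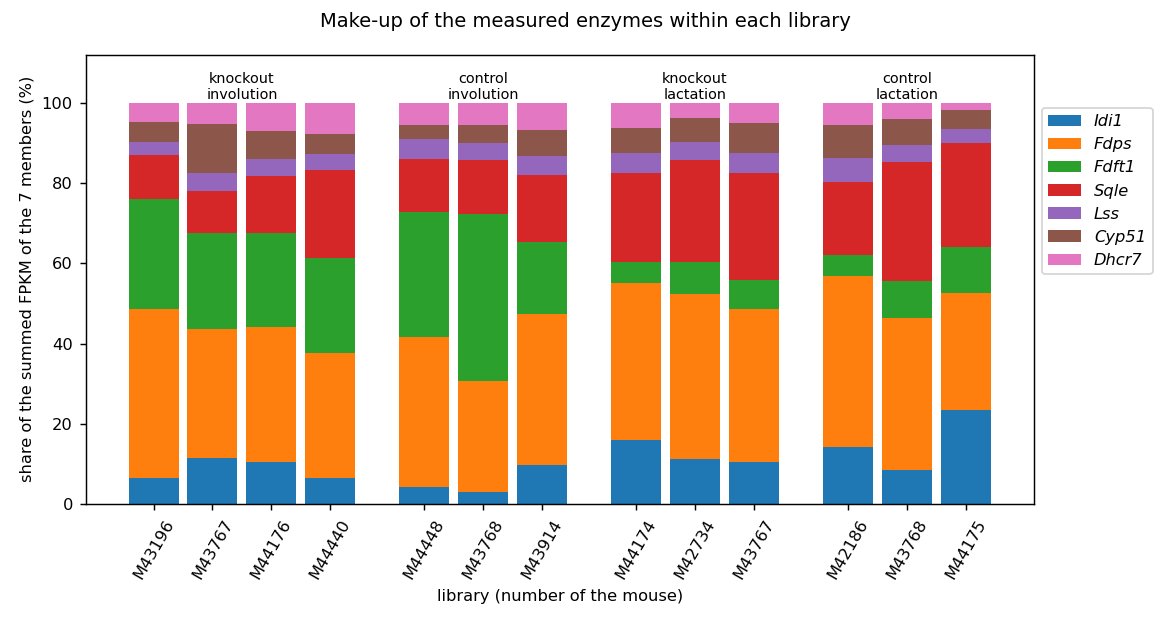
Share of each enzyme in the summed FPKM of the 7 measured enzymes (vertical axis, percent), 1 bar per library, with knockout and control glands at day 2 of involution on the left and knockout and control glands at day 7 of lactation on the right. The green Fdft1 segment spans 17.9% to 41.7% at involution and 5.30% to 11.4% at lactation.

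By group mean, the order of the levels at involution was Fdps, Fdft1 and Sqle, at 32.9 ± 8.74, 23.4 ± 5.33 and 12.9 ± 1.94 FPKM in knockout glands (SD, n = 4) and at 29.0 ± 10.7, 23.5 ± 4.36 and 12.2 ± 4.61 FPKM in control glands (SD, n = 3). Fdps and Fdft1 overlapped in both groups. At lactation Sqle and Idi1 stood between Fdps and Fdft1. Fdps, Sqle, Idi1 and Fdft1 averaged 67.6 ± 12.5, 41.9 ± 3.58, 22.0 ± 9.20 and 11.5 ± 1.53 FPKM in knockout glands, and 49.5 ± 18.1, 31.8 ± 5.59, 19.7 ± 7.52 and 10.99 ± 2.16 FPKM in control glands (SD, n = 3 each). Idi1 and Fdft1 overlapped in control but not in knockout glands. Lss, Cyp51 and Dhcr7 had means of 3.79 to 7.22 FPKM in knockout and 3.82 to 4.98 FPKM in control glands at involution, and overlapped each other in every group.

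Most of the enzymes varied together inside the groups, Fdft1 and Sqle least, and how much of the spread was shared was not computed. Control M43914 at involution was the highest control in 6 of 7 enzymes and the lowest in Fdft1, and control M43768 was the lowest in 5. Knockout M44440 was the lowest knockout at involution in 5 of 7 but the highest in Sqle. Knockout M43196 was the highest in 2 (Fdps and Fdft1) and the lowest in 2 (Sqle and Dhcr7). At lactation, knockout M44174 was the highest knockout in 6 of 7 (its 7 skeletal muscle markers summed to 1193 FPKM, against 0.979 and 1.22 FPKM in the other 2 knockouts), and control M44175 was the lowest control in 5 but the highest in Idi1 and Fdft1. After the mean of its group was subtracted from each log2 value, Lss correlated with the mean of the other 6 enzymes at r = 0.913 over the 13 libraries, Cyp51 at 0.862, Fdps at 0.834 and Dhcr7 at 0.730. Idi1 correlated at 0.573 and Sqle at 0.409, and Fdft1 at -0.264. Without control M44175 at lactation and knockout M43767 at involution (11 libraries), Idi1 stood at 0.981, Lss at 0.889, Cyp51 at 0.875, Fdps at 0.804, Dhcr7 at 0.802, Sqle at 0.361 and Fdft1 at -0.523. These coefficients are descriptions without a test, since values of 1 library share its depth and tissue make-up and 2 mouse numbers stand at both stages.

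**Figure D4:**
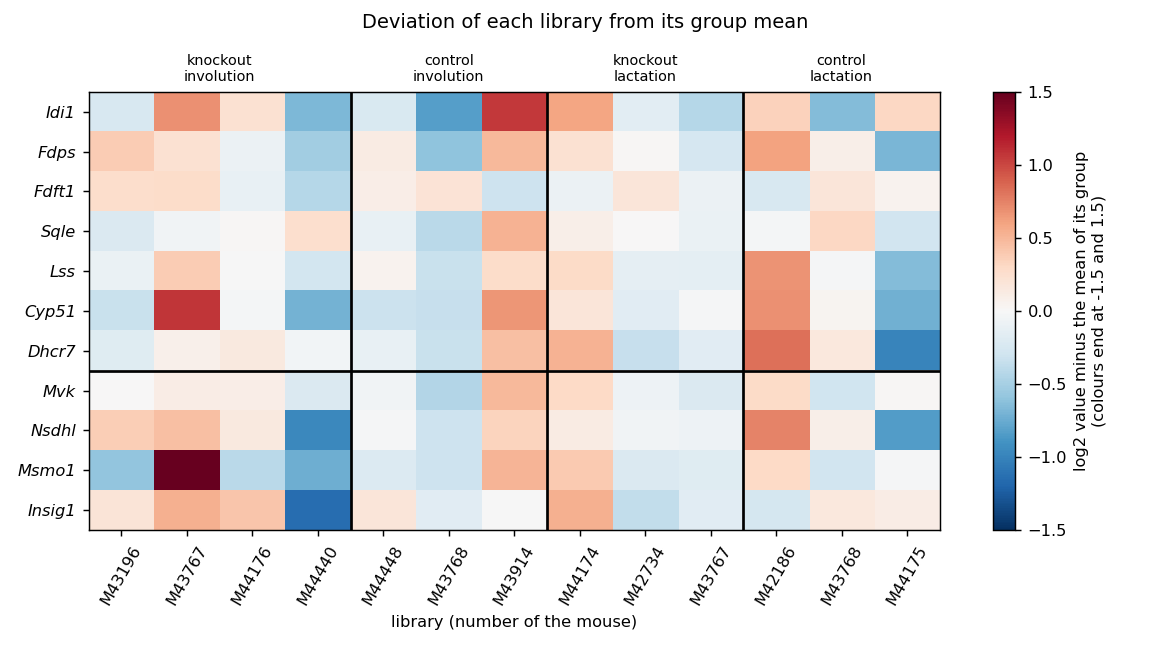
Deviation of each library from the mean of its group on the log2 scale (colour, red above and blue below the group mean, ending at -1.5 and 1.5), for the 7 measured enzymes and, under the line, Mvk, Nsdhl, Msmo1 and Insig1. Columns are libraries of knockout and control glands at involution and knockout and control glands at lactation; control M43914 at involution is red in 6 of the 7 enzymes, and the Fdft1 row does not follow the others.

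Promoter sequence is shown for 3 of the enzymes, from RefSeq start regions of GRCm38.p6, a later build than the mm9 of the FPKM tables. The table held 5 of the 8 genes (Hmgcs1, Idi1, Lss, Cyp51 and Dhcr7, the last with 3 starts). Windows are given 5′ to 3′ on the strand of the gene, with CCAAT boxes (CCAAT, or ATTGG on the other strand), the site of NF-Y, a factor known to act beside SREBP, in capitals.
Idi1, chr13:8885356-8885655, plus strand: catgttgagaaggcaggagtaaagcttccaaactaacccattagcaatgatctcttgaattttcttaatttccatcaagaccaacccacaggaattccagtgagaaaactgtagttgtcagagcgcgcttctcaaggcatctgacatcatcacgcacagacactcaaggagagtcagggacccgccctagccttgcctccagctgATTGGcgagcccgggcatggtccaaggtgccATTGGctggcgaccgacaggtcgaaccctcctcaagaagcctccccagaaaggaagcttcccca
Lss, chr10:76531355-76531654, plus strand: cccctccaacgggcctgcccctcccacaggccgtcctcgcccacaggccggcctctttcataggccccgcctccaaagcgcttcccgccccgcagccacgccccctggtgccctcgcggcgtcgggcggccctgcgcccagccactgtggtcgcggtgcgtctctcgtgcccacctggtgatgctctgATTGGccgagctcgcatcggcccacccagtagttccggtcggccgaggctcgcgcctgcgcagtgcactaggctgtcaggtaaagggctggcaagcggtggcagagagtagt
Cyp51, chr5:4104648-4104947, minus strand: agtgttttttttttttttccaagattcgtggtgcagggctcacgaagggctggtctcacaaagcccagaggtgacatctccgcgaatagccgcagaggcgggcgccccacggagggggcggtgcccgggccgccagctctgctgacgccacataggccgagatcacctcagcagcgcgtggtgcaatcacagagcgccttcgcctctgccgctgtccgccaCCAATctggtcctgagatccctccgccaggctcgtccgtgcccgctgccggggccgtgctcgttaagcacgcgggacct
Idi1 held 2 such boxes, Lss 1 and Cyp51 1, and 37.4% of 32851 promoters of the same length held at least 1 on either strand. GC boxes (GGGCGG on either strand, bound by SP1 in many promoters) numbered 1 in Idi1, 2 in Lss and 1 in Cyp51, and 35.7% of all promoters held at least 1. No box overlapped another in these 3 windows. The sterol regulatory element spelled TCACNCCAC, read on both strands, was found in the Hmgcs1 window but in none of these 3, and in 1.24% of all promoters. Among the windows not shown, Hmgcs1 held 4 CCAAT boxes and 3 GC boxes. The 3 starts of Dhcr7 held 0, 0 and 2 CCAAT boxes and 1, 0 and 3 GC boxes. The windows shown therefore do not stand for all 5 genes. A match is a run of letters and not a measured site, and its absence says nothing of SREBP.

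Of 11 other enzymes of the pathway, 0 were called at either stage. At involution 7 were positive and 4 negative, with a median log2 difference of 0.19 (0.077 without knockout M43767), and at lactation 9 were positive and 2 negative (8 and 3 without rescaling), with a median of 0.22. Mvk (mevalonate kinase) measured 7.91, 8.39, 8.48 and 6.64 FPKM in knockout glands at involution, against 4.89, 3.61 and 7.82 FPKM in control glands. Only control M43914 reached the knockout range, and the log2 difference was 0.53 ± 0.22 (limma adjusted p = 0.718, unadjusted p = 0.0444). At lactation it was 0.062 ± 0.24. Nsdhl, which removes a C4 methyl group from the sterol nucleus, differed by 0.44 ± 0.35 at involution (adjusted p = 0.947) and 0.59 ± 0.38 at lactation (adjusted p = 0.998), or 0.29 without knockout M43767 and 0.18 without control M44175. Acat2, a thiolase that joins acetyl-CoA units at the entry of the pathway, measured 19.1, 23.6, 15.3 and 7.22 FPKM in knockout glands at involution, against 11.4, 10.4 and 9.90 FPKM in control glands. Knockout M44440 lay below all controls and the other 3 knockouts above them. Its log2 difference of 0.50 ± 0.35 (adjusted p = 0.938) was 0.29 without knockout M43767, and at lactation it was 0.22 ± 0.28.

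Knockout M43767 at involution was the highest of the 7 involution libraries in 10 of 18 enzymes of the pathway, among them Idi1, Lss and Cyp51. Control M43914 was the highest in 4, knockout M43196 in 2, and knockouts M44176 and M44440 in 1 each. The share of all genes that were highest in M43767 was not counted. Msmo1 (sterol C4-methyl oxidase) measured 10.04, 53.2, 11.6 and 9.02 FPKM in knockout glands, with M43767 second in that order, against 6.98, 6.67 and 12.6 FPKM in control glands. The same library held markers of skin. Krt1 stood at 38.8 FPKM in it and at 0 to 0.0955 FPKM in the other 6, Lor at 43.5 and 0 to 0.195 FPKM, Krt10 at 53.5 and 1.48 to 3.59 FPKM. It was the highest in 6 of 9 listed skin markers. Of the others, Scd3 and Awat2 were highest in knockout M44440 and Mgst1 in control M43914. The summed level of that list, which is mostly Mgst1, was 1176 to 1911 FPKM in knockout and 935.4 to 2046 FPKM in control glands at involution, with all 9 markers above 0 in each group. At lactation the list summed to 379.3 to 402.5 FPKM in knockout and 312.2 to 993.3 FPKM in control glands, where Ivl was at 0 in all controls. Without knockout M43767 the log2 difference was 0.27 for Msmo1 (0.84 with it) and 0.57 for Idi1 (0.79). The part of skin in these values was not tested.

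**Figure D5:**
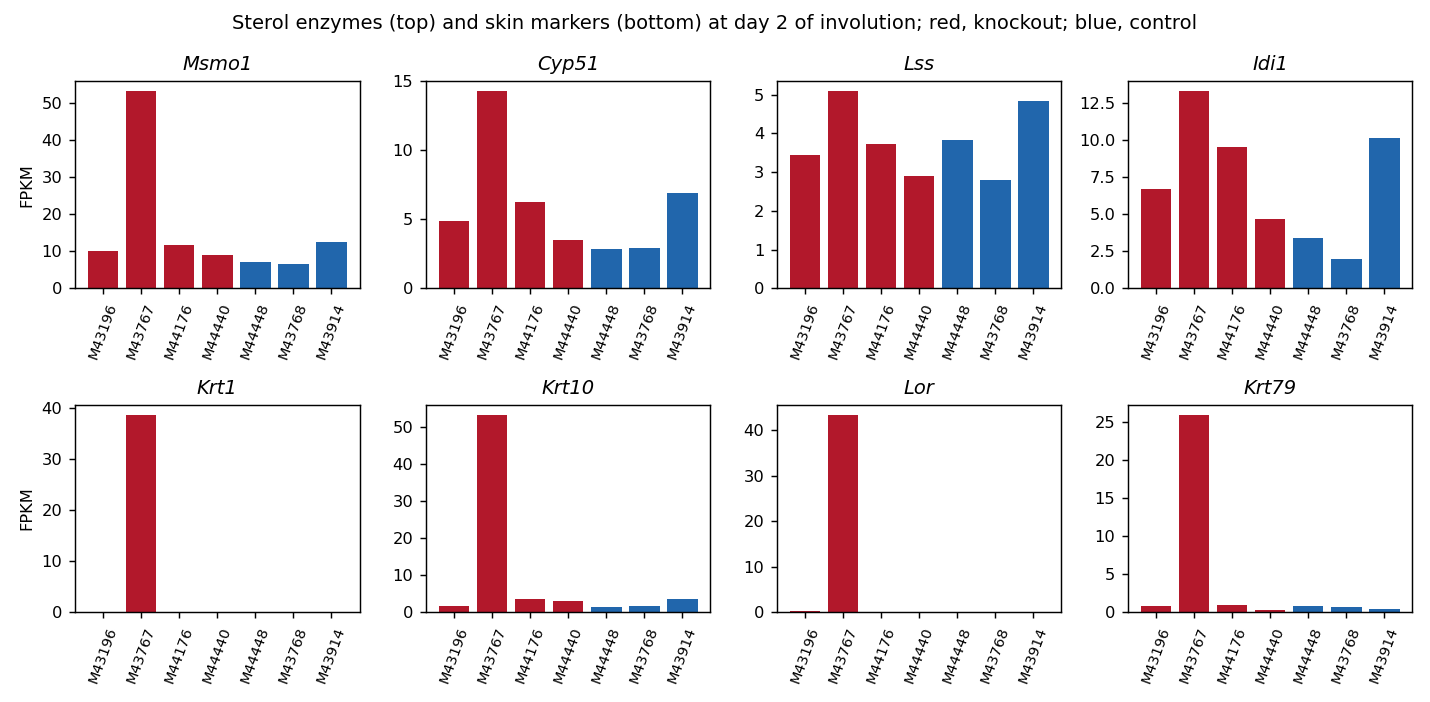
FPKM at day 2 of involution (vertical axes, from 0) of the sterol enzymes Msmo1, Cyp51, Lss and Idi1 (top) and the skin markers Krt1, Krt10, Lor and Krt79 (bottom), 1 bar per library, knockout glands in red on the left and control glands in blue on the right. Knockout M43767 is the highest bar in all 8 panels, which show only genes that were highest in this library.

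The regulators of the pathway (15 genes of SREBP processing, feedback and NF-Y) held 0 called genes at either stage. At involution 2 were positive and 13 negative, with a median log2 difference of -0.13, and the same counts held under each scaling tried and without knockout M43767. At lactation 8 were positive and 7 negative, with a median of 0.045 that turned to -0.014 without rescaling. Insig1, the feedback brake and itself an SREBP target, was among the positive. It measured 40.1, 50.3, 47.0 and 15.4 FPKM in knockout glands at involution, against 20.7, 16.5 and 18.6 FPKM in control glands. Knockout M44440 lay below all controls and the other 3 knockouts above them, with a log2 difference of 0.90 ± 0.39 (adjusted p = 0.727, unadjusted p = 0.0481). At lactation Insig1 measured 225.7, 119.6 and 132.3 FPKM in knockout glands, against 97.0, 135.1 and 146.9 FPKM in control glands (log2 difference 0.36 ± 0.32, adjusted p = 0.998). Set side by side, both ranges lay above all involution libraries.

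Srebf2, which encodes SREBP2, averaged 9.77 ± 0.979 FPKM in knockout glands (SD, n = 4) and 11.7 ± 0.838 FPKM in control glands (SD, n = 3) at involution, a log2 difference of -0.22 ± 0.13 (adjusted p = 0.905). At lactation it averaged 6.02 ± 0.819 FPKM in knockout and 5.33 ± 1.34 FPKM in control glands (SD, n = 3 each), a log2 difference of 0.22 ± 0.25, which turned to -0.0066 without control M44175. Scap differed by -0.34 ± 0.17 at involution (adjusted p = 0.831) and by 0.49 ± 0.27 at lactation (adjusted p = 0.998, and 0.23 without control M44175), and the difference between the stages was -0.83 ± 0.31 (adjusted p = 0.999, unadjusted p = 0.0208). Erlin2, a protein of the endoplasmic reticulum membrane, differed by -0.24 ± 0.21 at involution. Ubxn2a differed by -0.23 ± 0.33 at involution and -0.55 ± 0.26 at lactation, where the knockout range lay below the control range (adjusted p = 0.998). It was 1 of 15 regulators that were apart at lactation, where 6.06% of all genes did not overlap.

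Genes of cholesterol uptake and lysosomal release (11 tested at each stage) held 0 called genes. At involution 6 were positive and 5 negative (median 0.0044, which turned to -0.019 without rescaling and -0.013 with quantile normalization), and at lactation 8 positive and 3 negative (median 0.079, with 6 and 5 without rescaling or with quantile normalization). Stard3, a cholesterol transfer protein of late endosomes, measured 14.0, 15.5, 16.7 and 16.5 FPKM in knockout glands at involution, against 27.9, 24.6 and 26.2 FPKM in control glands. The groups were apart, and the log2 difference of -0.69 ± 0.14 had an unadjusted p of 0.000974 and an adjusted p of 0.245, so it was not called. At lactation Stard3 was at 2.31 to 2.49 FPKM in knockout and 2.21 to 3.25 FPKM in control glands. Lipa, the lysosomal acid lipase that frees cholesterol from its esters, was likewise apart, at 109.2, 101.1, 159.2 and 88.0 FPKM in knockout glands at involution, against 175.9, 230.3 and 164.3 FPKM in control glands (log2 difference -0.72 ± 0.24, adjusted p = 0.599). With Lrp8, 3 of the 11 lay lower in all knockouts than in all controls at involution, where 7.09% of all genes did not overlap in either direction. At lactation the groups overlapped in Lipa, with a log2 difference of -0.55 ± 0.32 (adjusted p = 0.998). Lrp1, an endocytic receptor of lipoprotein remnants, differed by 0.69 ± 0.31 at involution (adjusted p = 0.749).

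Genes of cholesterol efflux, storage and oxysterols held 0 called genes (11 tested at involution, 7 positive and 4 negative, median 0.22; 6 tested at lactation, 4 positive and 2 negative, median 0.28). Cyp27a1 (sterol 27-hydroxylase) measured 8.46, 12.7, 7.61 and 8.08 FPKM in knockout glands at involution, against 6.21, 5.46 and 2.34 FPKM in control glands. Every knockout lay above every control, with a log2 difference of 0.92 ± 0.30 (adjusted p = 0.582), or 0.77 without knockout M43767. Cyp27a1 was 1 of 11 that were apart there, where 7.09% of all genes did not overlap. Abcg1, a sterol exporter of macrophages among other cells, differed by -0.95 ± 0.50 at involution (adjusted p = 0.872). Apoe, the lipoprotein ligand, differed by 0.64 ± 0.55 at involution (adjusted p = 0.956) and 0.57 ± 0.28 at lactation (adjusted p = 0.998), where the knockout range, 104.7 to 142.7 FPKM, lay above the control range, 68.6 to 91.1 FPKM. It was 1 of 6 that were apart at lactation, where 6.06% of all genes did not overlap.

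By the rule for likeness (highest correlation with the mean of the 7 enzymes over the 13 libraries, group means subtracted), the nearest 9 of 12660 other genes were Alcam (r = 0.922), Arap2, Sdc1, Map3k9, Cmah, Slc35b4, Cry1, Tspan9 and Hn1l (r = 0.858). Nsdhl ranked 11, Mvk 49 and Msmo1 211. Without control M44175 at lactation and knockout M43767 at involution, Mvk ranked 1 (r = 0.988) and Msmo1 8, whereas Nsdhl ranked 661 and Alcam 146. Srebf2 ranked 1845 with all libraries (r = 0.418).

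No marker of adipocytes or luminal epithelium was called at either stage, and the part of other cell types in the enzyme values was not tested. All 11 adipocyte markers were positive at both stages (median log2 difference 0.64 at involution and 0.77 at lactation), with summed levels of 4982 to 19221 FPKM in knockout and 4471 to 9953 FPKM in control glands at involution, and 1839 to 2769 FPKM in knockout and 1010 to 2981 FPKM in control glands at lactation. At lactation 5 of the 11 had an unadjusted p under 0.05 (2.38% of all genes), and in 4 the knockout range lay above the control range (6.06% of all genes did not overlap in either direction). At involution both counts were 0. Without knockout M43767 the involution median was 0.43, and without control M44175 the lactation median was 1.23, with 10 of 11 positive. The 10 luminal epithelial markers, of the cells that make milk, had 3 positive and 7 negative at involution (median -0.13) and 4 and 6 at lactation (median -0.095). They summed to 1517 to 2598 FPKM in knockout and 1634 to 2196 FPKM in control glands at involution, and to 524.7 to 604.2 FPKM in knockout and 606.3 to 671.1 FPKM in control glands at lactation.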

How the data were processed

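Per the labels' protocols, total RNA of flash-frozen mammary glands was prepared with TruSeq kits and sequenced on a HiSeq. The submitters' processing notes name CASAVA, cutadapt, TopHat and build mm9. The sources used here do not state versions, the FPKM program, its scaling, its strandedness or its treatment of shared reads. The authors deposited FPKM, 1 table per stage, and FPKM are printed as deposited.

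For tests, each library of a table was rescaled by its median-of-ratios factor and FPKM were taken to log2(FPKM + 1), which understates changes of low genes. Genes reaching 1 FPKM in 3 or more libraries were fitted with limma 3.58.1 (intensity trend, R 4.3.3). Tests were two-sided with Benjamini-Hochberg adjusted p-values, called under 0.05. The difference between stages was fitted jointly over 13 libraries. Exact zeros entered as 0. Groups came from the titles. Libraries of a stage carry different mouse numbers, and the labels give no batch. The number of fragments is unknown. Relative depth was estimated from ratios of values under 0.3 FPKM, of which 69.5% at involution and 71.0% at lactation fell on whole-number ratios (within 0.02, log2). Fits and depth estimates were tested on simulated data.

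The members and the 15 other lists (pathway and cell type genes) were chosen with earlier results of these data known. Named genes are the members, from each pathway list the 3 with the largest absolute log2 difference at involution and the 1 at lactation, any called gene of the lists, Srebf2, Insig1, and those most like the members (the rule took 10). A few genes of the lists and the rule are not reported here, and counts and medians of the lists are without them. Alternatives were another pseudocount, filters, scalings, robust and weighted fits, a block on mouse number and leaving out each library. Leaving knockout M43767 (involution) or control M44175 (lactation) out of the lists and the correlations, and ranking the genes of the joint fit, were chosen after seeing the data.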

Additional observations from a re-analysis of the deposited data

Results flagged for a closer look

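Among the 4 knockout libraries at involution, 3 named genes had a library far from the other 3 by Dixon's criterion, which chance meets in about 1 in 20 groups. These genes were named for a large difference at involution, which uses the same values, so that rate does not apply to them. Knockout M43767 was the high one in 2 of them, with Msmo1 at 53.2 FPKM and Cyp27a1 at 12.7 FPKM. The same library was the highest in 6 of the 9 listed skin markers described above, and their part was not tested. Knockout M44440 was the low one for Fads2 (fatty acid desaturase 2), at 11.5 FPKM. None of the 7 measured cholesterol synthesis enzymes met the criterion.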

How the results depend on the processing

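No enzyme was called in any of 16 settings at involution, 15 at lactation and 24 for the difference (smallest adjusted p 0.391, 0.391 and 0.634). The sign turned in 12 of 111 values at involution, 2 of 105 at lactation and 9 of 168 for the difference. At involution Fdft1 turned without rescaling (-0.019), with quantile normalization (-0.015) and with array weights (-0.025), and Lss without rescaling (-0.0083) and with quantile normalization (-0.044). Leaving out 1 library at involution gave Fdft1 -0.16 to 0.15, Lss -0.15 to 0.15, Fdps -0.066 to 0.47 and Sqle -0.062 to 0.39, the lowest of Lss, Fdps and Sqle without control M43768 and of Fdft1 without control M43914. It gave Idi1 0.38 to 1.31, Cyp51 0.25 to 0.93 and Dhcr7 0.066 to 0.45 there. At lactation it gave Idi1 -0.11 to 0.44, Fdps 0.22 to 0.86, Fdft1 0.012 to 0.22, Lss 0.18 to 0.84, Cyp51 0.069 to 0.77 and Dhcr7 0.28 to 1.19. Sqle at lactation ran from 0.18 to 0.61 over all 15 settings, and its sign did not turn. The difference turned with array weights for Fdps (0.15) and Sqle (0.061). Without 1 library it ran from -0.63 to 0.013 for Fdps, -0.28 to 0.024 for Fdft1 and -0.18 to 0.53 for Cyp51. No paired analysis was possible because no pair of groups shares 2 mouse numbers. With mouse number as a replicate block in the joint fit (consensus correlation 0.697, from the 2 numbers that stand at both stages), the difference turned for Fdps (0.17), Fdft1 (0.019) and Sqle (0.0015), and the genes called numbered 20, against 10.

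Genes called over the whole table numbered 8 at involution, and 13 with upper quartile scaling, 14 with robust fitting, 20 with array weights, 1 without genes listed at 0 in a whole group, and 2 to 9 without 1 library. At lactation 1 was called, and 2 with a pseudocount of 0.1, 9 with array weights, 0 without genes listed at 0 in a whole group, and 0 to 3 without 1 library. For the difference, the count of 10 became 16 with array weights, 1 without genes listed at 0 in a whole group and 6 to 12 without 1 library. Without knockout M43767 at involution Coq2 turned (0.061), and without control M44175 at lactation Dpagt1 (-0.22), Coq2 (0.14), Acacb (-0.19) and Srebf2 (-0.0066) did. Leaving out genes listed at 0 in a whole group takes any called gene of that kind out of the count, and how many of the called genes were such was not counted. The cause of the other changes was not tested. Without genes listed at 0 and under a minimum of 5 FPKM fewer genes were tested, and Lss left the involution fit at 5 FPKM. Depth is known only relative to a table, so no counting limits are given.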

Other observations

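Fatty acid synthesis genes, which SREBP1 drives and which supply milk fat, held 0 called genes among 13 at each stage. At involution 8 were positive and 5 negative (median log2 difference 0.15), and at lactation 10 and 3 (median 0.30, and -0.045 without control M44175). Acacb, an acetyl-CoA carboxylase, measured 21.6 ± 4.85 FPKM in knockout glands (SD, n = 4) and 11.7 ± 5.797 FPKM in control glands (SD, n = 3) at involution (log2 difference 0.96 ± 0.37, limma adjusted p = 0.657). Fads2 differed by -0.83 ± 0.37 at involution (adjusted p = 0.745) and 0.30 ± 0.28 at lactation, Acss2 (acetyl-CoA synthetase) by 0.53 ± 0.52 and 0.67 ± 0.32, and Scd2 (a stearoyl-CoA desaturase) by -0.30 ± 0.33 and 0.91 ± 0.60. Without control M44175 the lactation values were 0.11 for Fads2, 0.41 for Acss2 and 0.14 for Scd2, and without knockout M43767 the involution value of Scd2 was -0.53. Side by side, 3 of the 13 lay lower at involution than at lactation without overlap over all libraries and 0 higher, where 1.42% of all genes lay lower and 64.8% higher.

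The isoprenoid branch, which uses the product of Fdps for ubiquinone, dolichol and protein prenylation, had 6 positive and 6 negative genes at involution (median -0.0016, or 0.014 with upper quartile scaling) and 4 positive and 7 negative at lactation (median -0.019, or 0.022 with upper quartile scaling). Dpagt1, the first enzyme of N-glycan assembly on dolichol, lay lower in every knockout (24.2 to 30.2 FPKM) than in every control (30.3 to 44.0 FPKM) at involution, with a log2 difference of -0.35 ± 0.17 (adjusted p = 0.787). It was 1 of 12 that were apart there, where 7.09% of all genes did not overlap. Pdss1 and Pdss2, which make the ubiquinone side chain, differed by 0.39 ± 0.24 and 0.31 ± 0.23 at involution, and Coq2 by -0.049 ± 0.22 at involution and -0.44 ± 0.49 at lactation, with both signs turned when 1 library was left out (0.061 without knockout M43767 at involution, 0.14 without control M44175 at lactation).

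Of the other cell type lists, fibroblast markers were positive in 8 of 8 at involution and 7 of 7 at lactation (medians 0.79 and 0.73), macrophage markers in 10 of 12 and 5 of 7 (0.39 and 0.30), basal epithelial markers in 8 of 9 and 7 of 9 (0.40 and 0.21) and endothelial markers in 4 of 8 and 7 of 7 (0.018 and 0.63, the first -0.0062 without rescaling). At lactation 4 of the 7 endothelial markers had an unadjusted p under 0.05 and 6 lay higher in all knockouts than in all controls, against 2.38% and 6.06% of all genes in either direction. At involution 3 of 8 fibroblast markers had an unadjusted p under 0.05, against 6.84% of all genes. Lymphocyte markers were positive in 3 of 4 tested at involution (0.15) and none passed the filter at lactation. There the list summed to 63.1 FPKM in control M43768, against 0.797 to 4.71 FPKM in the other lactation libraries. The part of these transcripts in the enzyme values was not tested. Skin markers were positive in 4 of 5 tested at involution (1.13, or 0.32 without knockout M43767) and 2 of 5 at lactation (-0.42), and skeletal muscle markers in 3 of 7 and 2 of 7 (-0.019 and -0.18, the first 0.0041 with upper quartile scaling). No gene of these lists was called at either stage.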
